A study of Mus musculus with 12 samples.

Results

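The route from the insulin receptor to the transcription factor FoxO1 was followed in mouse macrophages and livers through 9 genes: Insr, Irs1, Irs2, Pik3r1, Pik3ca, Akt1, Akt2, Foxo1 and Igfbp1. They were found by their symbols among the 55335 genes of the count table, where each of the 9 symbols was listed once. mRNA was sequenced in 12 libraries that fall into 4 groups of 3. Bone-marrow-derived macrophages (BMDMs) came from male Tshr f/f mice, 6 weeks old, or from Tshr MKO littermates. For mice used for BMDMs the methods give an age of 6 to 8 weeks. The cells were grown for 7 days with 10 ng/mL M-CSF and were given 1 ng/mL TSH for 24 hours. Livers came from male Tshr f/f or Tshr MKO littermates that began a high-fat diet at 6 weeks of age, stayed on it for 9 weeks, fasted for 8 hours and were killed 5 minutes after 1.5 U/kg insulin. Every mouse carried loxP-flanked Tshr, the gene of the TSH receptor, and Tshr MKO mice (Tshr f/f,Lyz2-Cre in the labels) also carried Cre under the Lyz2 promoter. This promoter is active in myeloid cells, so in a Tshr MKO liver the hepatocytes keep Tshr. All BMDM libraries had TSH and all liver libraries had insulin, so the comparisons were of genotype and of tissue. The methods give 3 male littermates per group for both tissues, and each library has a sample ID of its own.

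Insulin binds its receptor, encoded by Insr, which phosphorylates the adaptor proteins IRS1 and IRS2. These recruit PI 3-kinase, made of a regulatory subunit such as the product of Pik3r1 and a catalytic subunit such as that of Pik3ca, and the lipid it makes activates the kinases AKT1 and AKT2. In liver, AKT phosphorylates FoxO1 and keeps it out of the nucleus. Transcription of genes that FoxO1 activates then drops, among them Igfbp1, which encodes a secreted binding protein for insulin-like growth factors, and Irs2. Most of these steps act on proteins, whereas only mRNA was measured here.

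The promoters of Igfbp1, Irs2 and Irs1 are printed because they hold the letters CAAAACAA, which FoxO proteins are known to bind, and because Igfbp1 showed the largest difference between the livers. Each run is the 250 bases before the RefSeq start of the gene in GRCm38.p6, read 5′ to 3′ on the strand of the gene, with the motif in capitals (TTGTTTTG is CAAAACAA on the other strand).
Igfbp1, chr11:7197537-7197786, plus strand: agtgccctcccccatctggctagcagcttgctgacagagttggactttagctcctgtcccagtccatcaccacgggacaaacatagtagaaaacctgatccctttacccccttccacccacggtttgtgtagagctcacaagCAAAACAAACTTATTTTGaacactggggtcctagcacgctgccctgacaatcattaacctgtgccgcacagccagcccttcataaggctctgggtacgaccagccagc
Irs2, chr8:11008930-11009179, minus strand: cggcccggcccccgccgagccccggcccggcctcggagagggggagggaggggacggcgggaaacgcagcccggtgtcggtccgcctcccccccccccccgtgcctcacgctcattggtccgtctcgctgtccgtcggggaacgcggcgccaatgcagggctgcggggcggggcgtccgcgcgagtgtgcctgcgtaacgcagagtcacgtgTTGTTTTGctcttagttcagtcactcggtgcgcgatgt
Irs1, chr1:82291440-82291689, minus strand: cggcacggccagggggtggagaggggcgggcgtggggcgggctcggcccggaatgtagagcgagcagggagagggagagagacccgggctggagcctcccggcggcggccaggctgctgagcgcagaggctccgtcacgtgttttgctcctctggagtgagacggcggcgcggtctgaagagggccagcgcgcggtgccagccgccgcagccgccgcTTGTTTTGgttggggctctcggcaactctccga
In Igfbp1 the letters run on as CAAAACAAACTTATTTTG, which lies 108 to 91 bases before the start. This longer run was copied from the Igfbp1 window, so a match there was certain, and the share is no measure of rarity. It was found in 1 of 32851 windows (0.00304%), that of Igfbp1. CAAAACAA on either strand was found in 727 of the 32851 windows (2.21%) and in 3 of the 8 members that have a window. It lies 38 to 31 bases before the start in Irs2 and 33 to 26 in Irs1. These positions count from the RefSeq starts, which differ from the GENCODE M21 gene bounds given below, most for Irs2. GTAAACA, another form of the motif, was found in 3.17% of windows and, among the members, in Akt1. These motifs were chosen after the windows had been read, and a match is a run of letters only.

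The labels of the livers carry a doubt. The liver counts that the study printed, for cytokine receptor genes only, stand under the other genotype's heading, so the groups are called livers labelled Tshr f/f and livers labelled Tshr MKO, and every genotype direction in liver rests on those labels. Tshr was at 0 counts in all 6 livers, and had 0, 0 and 2 counts in the Tshr f/f and 0, 0 and 5 in the Tshr MKO macrophages, too few to check any label. The libraries held 28962878 to 40954211 counts, and 3 counts, the limit that a count of 0 allows, are 0.0733 to 0.104 CPM by library totals alone. CPM elsewhere, a gene's counts scaled to the same total in every library, also uses the TMM scaling factors. Hepatocyte markers (Alb, Apoa1, Ttr, Hnf4a and Cyp2e1) summed to 70456–94558 CPM with the Tshr f/f label and 86682–89289 with the Tshr MKO label, and to at most 0.0783 in BMDMs, where Alb and Hnf4a were at 0. Macrophage markers, 6 genes of which none was at 0, summed to 14459–16065 CPM in Tshr f/f and 19800–29047 in Tshr MKO BMDMs, against 120–306 and 125–287 in the livers. The study also measured Itgam and Adgre1 of these in liver by qRT-PCR. In livers labelled Tshr MKO against f/f their log2 fold changes were −1.06 and −0.25. The groups overlapped and the edgeR adjusted p were 0.646 and 0.909, too weak to settle the labels. The Tshr f/f BMDM replicate 3 stood apart, with a scaling factor of 0.738 against 0.993–1.11 in the other 5, and the BMDM values of members that moved by over 1.5 times without it are given both ways.

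Igfbp1, the FoxO1 target, was the member with the largest difference between the livers. It stood at 257, 255 and 252 CPM with the Tshr f/f label and at 119, 42.1 and 97.8 with the Tshr MKO label. The 3 labelled Tshr f/f lay within a few CPM of each other (255 ± 2.63, SD, n = 3), the 3 labelled Tshr MKO were spread more widely (86.3 ± 39.7), and the groups did not overlap. The log2 fold change was −1.56 (SE 0.35, 95% interval −2.41 to −0.71), about 0.339 of the level in livers labelled Tshr f/f. In edgeR the unadjusted p was 0.00367 and the adjusted p over 15062 genes 0.334, so it did not pass, whereas DESeq2 gave an adjusted p of 0.000653. With any 1 liver left out the log2 fold change lay between −1.87 and −1.25, and the adjusted p between 0.183 and 0.687. The sample IDs of the livers begin with A or B, and the difference was −1.39 within A (2 livers labelled Tshr f/f and 1 labelled Tshr MKO) and −1.83 within B (1 and 2).

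**Figure D1:**
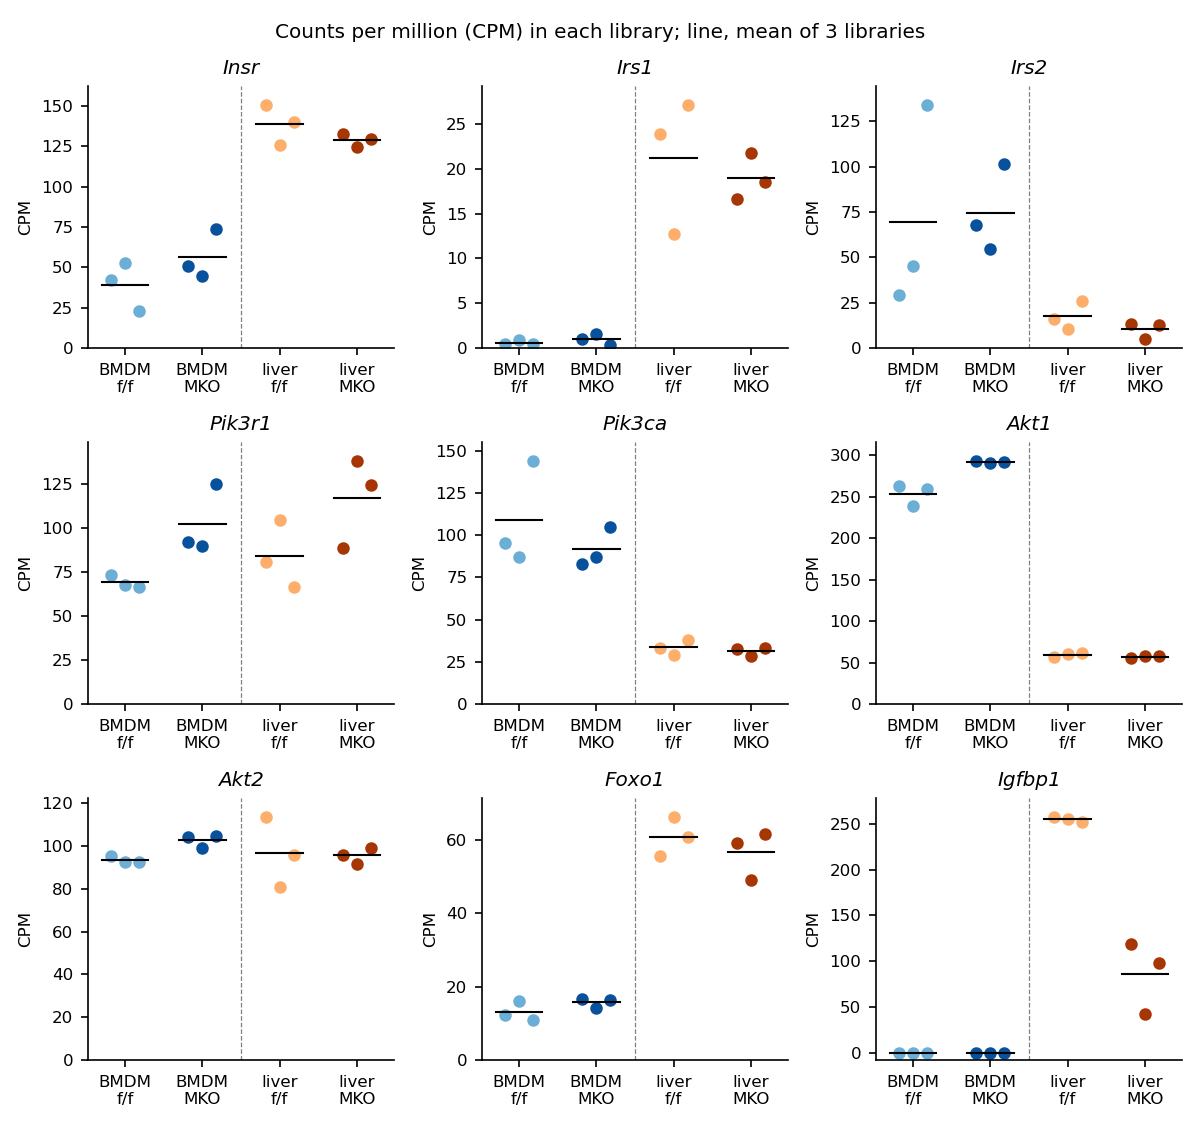
Level of each of the 9 genes in CPM (vertical axis, 1 panel per gene), scaled within a tissue, with a point for each library, a line at the mean of 3 libraries and a dashed line between BMDMs and livers. The 3 livers labelled Tshr f/f sit between 252 and 257 for Igfbp1, above all 3 labelled Tshr MKO, and the BMDM points of Igfbp1 are at 0.

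Of the 9 members, 8 were lower and 1 was higher in livers labelled Tshr MKO by sign, where 50.9% of all genes tested were lower. None passed an adjusted p under 0.05 in edgeR, and neither did any of the 15062 genes (0% in each direction). At an unadjusted p under 0.05 there was 1 member, Igfbp1, against 5.18% of all genes lower and 5.27% higher. Igfbp1 was also the 1 member whose groups did not overlap, against 7.74% of all genes lower and 9.6% higher. DESeq2 called 1 of the 9, also Igfbp1. The 5 hepatocyte markers had log2 fold changes from −0.34 (Hnf4a) to 0.37 (Ttr), with Alb at 0.23, and the part of cell composition in the difference of Igfbp1 was not tested. In tissue RNA, fewer cells of a type and less RNA per cell cannot be told apart.

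Insr stood at 150, 126 and 140 CPM with the Tshr f/f label and at 132.9, 125 and 130 with the Tshr MKO label. The groups overlapped, with a log2 fold change of −0.10 (SE 0.10, 95% interval −0.34 to 0.13).

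Of the substrates, Irs2 had the wider spread. It stood at 15.8, 10.6 and 25.8 CPM with the Tshr f/f label and at 13.5, 5.17 and 12.5 with the Tshr MKO label. The highest and the lowest liver came from different groups, and the others overlapped. The log2 fold change was −0.75 (SE 0.45, edgeR adjusted p = 0.603). Leaving out replicate 3 with the Tshr f/f label gave −0.36, and leaving out replicate 2 with the Tshr MKO label gave −0.43. Within A the difference was −0.05 and within B −1.63. Irs1 was at 23.9, 12.7 and 27.1 against 16.7, 21.7 and 18.5 CPM, so that its livers labelled Tshr MKO lay inside the range of the others. Its log2 fold change was −0.16 (SE 0.28), and 0.05 when replicate 3 with the Tshr f/f label was left out.

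Pik3r1, which encodes the p85α regulatory subunit, was the 1 member at a higher mean in livers labelled Tshr MKO. It stood at 80.6, 105 and 66.7 CPM with the Tshr f/f label and at 88.7, 138 and 124 with the Tshr MKO label. Only the lowest of the livers labelled Tshr MKO fell inside the range of the other group. The log2 fold change was 0.48 (SE 0.22, 95% interval −0.04 to 0.99) with an unadjusted p of 0.0639 and an adjusted p of 0.5 in edgeR. The catalytic subunit gene Pik3ca was at 33.3, 29.2 and 38.0 against 32.6, 28.6 and 33.0 CPM, giving a log2 fold change of −0.10 (SE 0.12).

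The kinases and the factor differed little between the livers, and Akt1 varied least. Akt1 stood at 56.4, 60.5 and 61.9 CPM with the Tshr f/f label and at 55.3, 57.5 and 58.2 with the Tshr MKO label (−0.07, SE 0.08). Akt2 was at 113, 81.1 and 96.0 against 96.0, 91.7 and 99.3, with a log2 fold change of −0.02 (SE 0.13) that was 0.02 when libraries were scaled by their totals alone. Foxo1 itself was at 55.5, 66.0 and 60.6 against 59.2, 49.0 and 61.6 CPM (−0.10, SE 0.12, 95% interval −0.38 to 0.18). The groups overlapped for all of these.

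**Figure D2:**
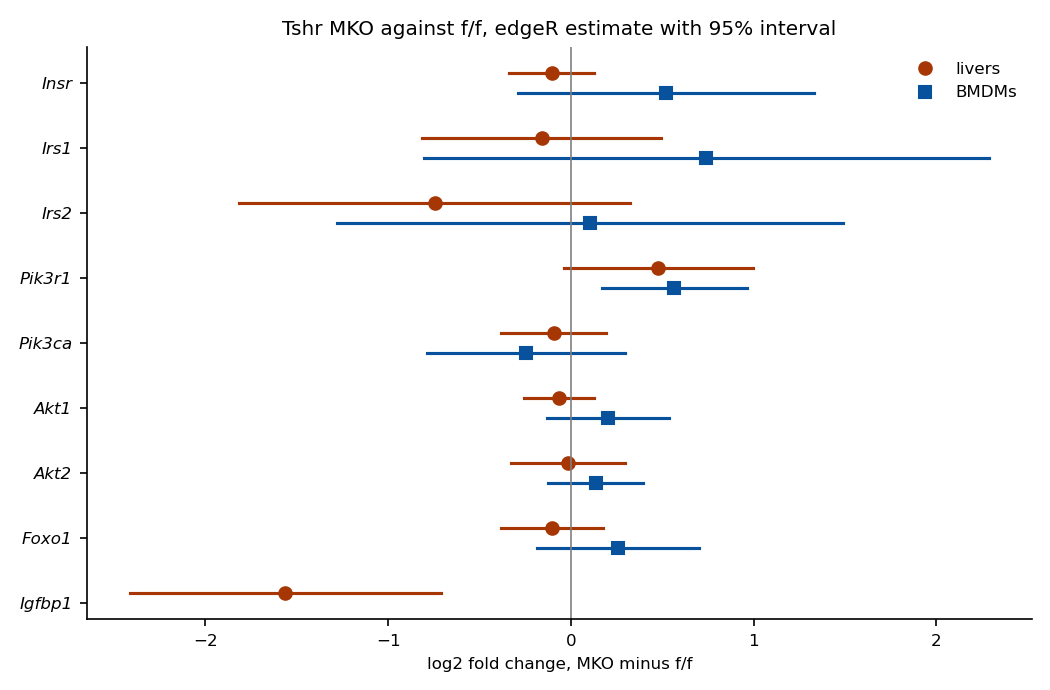
edgeR log2 fold change of Tshr MKO against Tshr f/f (horizontal axis) with its 95% interval for each gene, in livers (circles) and BMDMs (squares), n = 3 per group. The intervals leave out 0 for Igfbp1 in livers and for Pik3r1 in BMDMs, and Igfbp1 has no BMDM value.

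The livers also differed among themselves. The liver labelled Tshr MKO replicate 2 had the lowest of the 6 levels for 5 members (Insr, Irs2, Pik3ca, Foxo1 and Igfbp1) and the highest for Pik3r1. G6pc, the glucose-6-phosphatase gene that insulin represses, chosen after its values were seen, was also lowest in that library, at 66.6 CPM against 111 to 378 in the other 5 livers. Of the other FoxO targets named here that are not members, Pck1 and, narrowly, Pdk4 were lowest in it too. Apoc3 and Sesn1 were not. The liver labelled Tshr f/f replicate 3 had the highest level for 4 members and the lowest for Pik3r1. Without the liver labelled Tshr MKO replicate 2, Igfbp1 had a log2 fold change of −1.25, an unadjusted p of 8.66e-05 and an adjusted p of 0.366 in edgeR. Its levels in the livers labelled Tshr f/f were alike although Irs2, Irs1 and Pik3r1 were not.

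**Figure D3:**
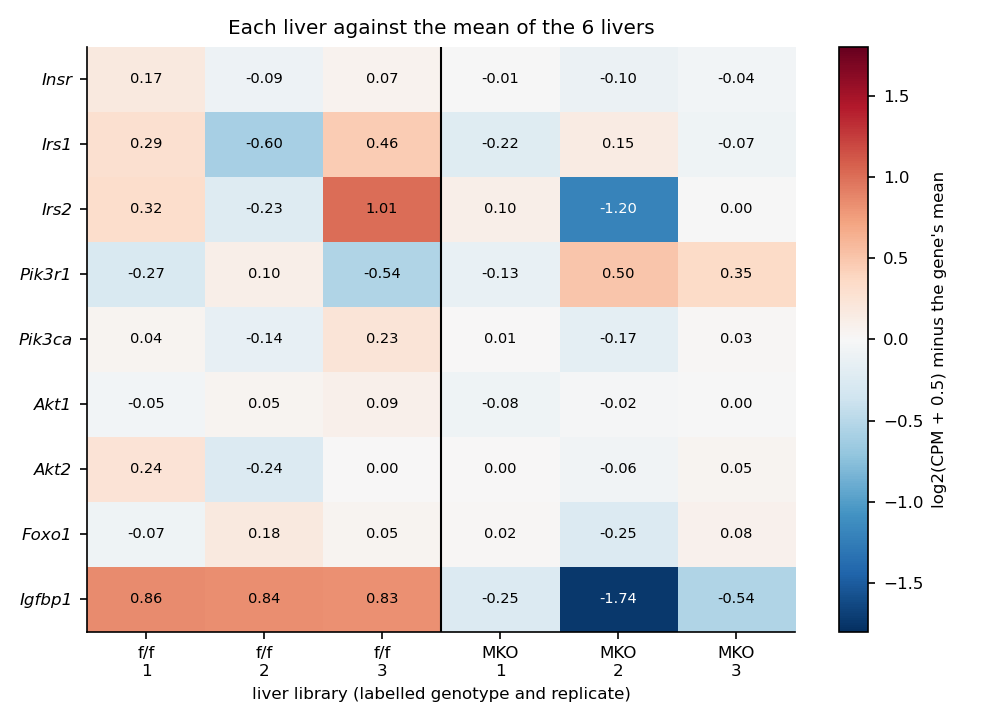
Each liver's log2(CPM + 0.5) minus the mean of the 6 livers for each of the 9 genes (rows) and libraries (columns, labelled genotype and replicate), with the colour and number giving the difference. Igfbp1 was 0.83 to 0.86 above its mean in all 3 livers labelled Tshr f/f and 1.74 under it in the liver labelled Tshr MKO replicate 2, while Akt1 stayed within 0.09.

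Over the 6 livers, 12665 genes passed the filter with a mean of at least 1 CPM, and the 3 whose log2 CPM followed that of a member most closely were taken by Pearson's r, as a description. For Igfbp1 they were Klf9 (r = 0.996), Gabpa (0.992) and Gadd45g (0.989), and 130 genes had r above 0.9. For Insr they were Mrpl37 (0.998), AU022252 (0.989) and Mrpl43 (0.988), with 306 genes above 0.9. Irs2 was followed by 9530068E07Rik (0.989), Smug1 (0.984) and Rnf214 (0.983), with 68 above 0.9, and Foxo1 by Thnsl1 (0.973), Kdm1a (0.969) and 4833413G10Rik (0.969), with 31. The 6 points share tissue, diet and depth range and fall into 2 labelled groups, so a gene that differs between the groups as Igfbp1 does has a high r with it.

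In BMDMs, Pik3r1 was the member with the clearest difference. It was at 73.3, 67.4 and 66.4 CPM in the Tshr f/f cells and at 91.9, 89.6 and 125 in the Tshr MKO cells. All 3 Tshr MKO libraries were above all 3 Tshr f/f libraries. The log2 fold change was 0.57 (SE 0.17, 95% interval 0.17 to 0.96), with an unadjusted p of 0.0126 and an adjusted p over 15372 genes of 0.222 in edgeR, and an adjusted p of 0.0541 in DESeq2. Without the Tshr f/f replicate 3 it was 0.54. Pik3ca was at 95.6, 86.8 and 144 CPM against 82.7, 87.1 and 105, giving a log2 fold change of −0.25 (SE 0.22) that came to 0.005 without the Tshr f/f replicate 3, the library with the highest level.

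Igfbp1 was at 0 counts in all 6 BMDM libraries and was not tested there. Of the other 8 members, 7 were higher and 1 lower in Tshr MKO BMDMs by sign, where 50.8% of all genes tested were higher. None passed an adjusted p under 0.05 in edgeR (0% of 15372 genes did in either direction) or in DESeq2. At an unadjusted p under 0.05 there was 1 with either tool, Pik3r1, against 7.73% of all genes higher and 10.2% lower. Groups did not overlap for 3 members, all higher in Tshr MKO, against 14.8% of all genes higher and 14% lower.

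The other 2 of these 3 were the AKT genes. Akt1, the most abundant member in BMDMs, was at 262, 238 and 259 CPM in the Tshr f/f cells and at 292, 290 and 291 in the Tshr MKO cells. Akt2 was at 95.3, 92.5 and 92.8 against 104, 99.0 and 105. With TMM scaling the libraries of each group lay close together and the differences were small, with log2 fold changes of 0.20 (SE 0.14, adjusted p = 0.456) and 0.13 (SE 0.11, adjusted p = 0.52) in edgeR. With library totals alone, which moved the median of all genes to 0.17, they were 0.38 for Akt1 and 0.31 for Akt2.

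The remaining members varied more between BMDM libraries than between genotypes. Insr was at 42.2, 52.7 and 23.1 CPM in the Tshr f/f cells and at 50.9, 44.8 and 73.9 in the Tshr MKO cells, giving a log2 fold change of 0.52 (SE 0.34), or 0.25 without the Tshr f/f replicate 3, which had the lowest level, 0.28 without the Tshr MKO replicate 3 and 0.79 without the Tshr f/f replicate 2. Irs2 was at 29.5, 45.1 and 134 CPM against 67.9, 54.6 and 101. The Tshr f/f replicate 3 had the highest Irs2 of the 6, and the other 2 Tshr f/f libraries the lowest. The log2 fold change of Irs2 was 0.11 (SE 0.57, edgeR adjusted p = 0.932) with that library and 1.00 (unadjusted p = 0.022, adjusted p = 0.237) without it. Irs1 was close to the limit of detection, at 0.477, 0.847 and 0.422 CPM against 1.04, 1.60 and 0.313, which are 19, 37 and 11 counts against 40, 60 and 13. Foxo1 was at 12.4, 16.1 and 10.9 CPM against 16.5, 14.3 and 16.3 (0.26, SE 0.18). Its log2 fold change was 0.15 without the Tshr f/f replicate 3 and 0.43 (edgeR adjusted p = 0.184) without the Tshr f/f replicate 2.

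Of the 6 macrophage markers, 3 had a positive and 3 a negative log2 fold change in BMDMs. Their sum, which did not overlap between the genotypes, was mostly Lyz2, the gene whose promoter drives Cre, at a log2 fold change of 0.95 (edgeR adjusted p = 0.218). Adgre1 was at −0.30 with groups that did not overlap, Itgam at −0.51 and Mertk at −0.36, against 0.31 for Csf1r and 0.32 for Cd68. Marker sums of other cells overlapped between the genotypes. The 4 stellate cell or fibroblast markers summed to 505–1337 CPM in Tshr f/f and 314–531 in Tshr MKO BMDMs, with Lrat, which defines stellate cells, at 0. The 4 Kupffer cell markers summed to 8.98–109 and 28.8–278 CPM, with Clec4f at 0, and the 4 neutrophil markers to 5.70–45.7 and 4.48–10.8 CPM. Single markers whose groups did not overlap were Timd4 of Kupffer cells (−2.70), Pdgfrb of fibroblasts (−0.92) and Retnlg of neutrophils (higher in Tshr MKO, with at most 3 counts in a Tshr f/f and 71 in a Tshr MKO library). None of these markers passed an adjusted p under 0.05 in edgeR, and their part in the values of Pik3r1, Akt1 and Akt2 was not tested.

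The 9 genes belong to a list of 76 written for the wider pathway, with receptors, substrates and adaptors, PI 3-kinase subunits, kinases, negative regulators, FoxO factors and partners, FoxO targets, insulin-induced genes and binding proteins. In the livers 72 were tested, where 49 had a negative log2 fold change (Tshr MKO label against f/f) and 23 a positive one. Their median was −0.14, against −0.01 over all genes tested. No listed gene passed an adjusted p under 0.05 in edgeR, against 3 in DESeq2, which called 269 of all 15062. At an unadjusted p under 0.05, 9 were lower and 1 higher, where 5.18% and 5.27% of all genes were, and groups did not overlap for 12 lower and 2 higher, where 7.74% and 9.6% of all genes were. By sign alone, 8 of the 11 FoxO targets or insulin-repressed genes, Igfbp1 among them, were lower (median −0.32). Of the 11 negative regulators tested 9 were lower (−0.23), and 5 of the 6 binding proteins other than Igfbp1 were higher (0.20). At an unadjusted p under 0.05 these were 2, 3 and 0. The 16 kinases and their regulators had a median of −0.09, with 4 lower at an unadjusted p under 0.05.

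Besides Igfbp1, the 5 listed genes with the smallest p in liver were these. Sgk1, a kinase that also phosphorylates FoxO factors, stood at 31.6, 33.3 and 51.5 CPM with the Tshr f/f label and at 21.5, 19.3 and 15.6 with the Tshr MKO label. All 3 livers labelled Tshr MKO were below the others, with a log2 fold change of −1.04 (SE 0.22, adjusted p = 0.315 in edgeR and 0.00305 in DESeq2). Pdk4, which restrains pyruvate oxidation and is a FoxO1 target, was at 6.06, 7.20 and 10.7 against 4.27, 4.19 and 4.64 CPM (−0.87, SE 0.24). Apoc3, an inhibitor of lipoprotein lipase that FoxO1 activates, was higher in livers labelled Tshr MKO, at 631, 606 and 538 against 867, 751 and 791 CPM (0.44, SE 0.12), so that targets did not all share a direction. Tsc1, a brake on mTORC1, was at 30.9, 30.6 and 29.2 against 24.3, 26.6 and 23.0 CPM (−0.29, SE 0.09). Enpp1, a membrane enzyme that inhibits the insulin receptor, was at 28.8, 28.3 and 27.1 against 25.1, 23.0 and 23.0 CPM (−0.24, SE 0.09). Groups did not overlap for any of these 5, and their adjusted p in edgeR lay between 0.315 and 0.419. In DESeq2 Apoc3 also passed (adjusted p = 0.0205), and Pdk4 (0.0640), Tsc1 (0.211) and Enpp1 (0.305) did not.

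In BMDMs 63 of the 76 were tested, and 28 were lower and 35 higher in Tshr MKO, with a median of 0.04 against 0.01 over all genes. None passed an adjusted p under 0.05 in edgeR, and 6 did in DESeq2, which called 1223 of all 15372. At an unadjusted p under 0.05, 5 were lower and 6 higher, near the 10.2% and 7.73% of all genes. Without the Tshr f/f replicate 3 there were 16 in all, against 2429 of 15925 genes. The 4 FoxO factors were all higher by sign (median 0.66), none of them at an unadjusted p under 0.05 in edgeR. Each had its lowest level of the 6 libraries in the Tshr f/f replicate 3. Of the 8 PI 3-kinase subunits 5 were lower by sign (median −0.27), 2 of them at an unadjusted p under 0.05 in edgeR.

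The 5 listed genes with the smallest p in BMDMs, besides Pik3r1, had larger differences than the members. Igfbp4, another binding protein gene, was at 70.2, 49.3 and 36.7 CPM in the Tshr f/f cells and at 128, 138 and 157 in the Tshr MKO cells, giving a log2 fold change of 1.44 (SE 0.25, adjusted p = 0.218 in edgeR and 6.19e-05 in DESeq2). Enpp1 was at 15.0, 6.55 and 7.80 against 36.8, 35.9 and 27.0 CPM (1.76, SE 0.34). Groups did not overlap for either gene, and Enpp1 was higher in Tshr MKO here and lower in liver. Pik3cg, the catalytic subunit gene of leukocytes, was at 132.96, 137 and 218 against 94.0, 88.6 and 89.6 CPM (−0.84, SE 0.22, −0.57 without the Tshr f/f replicate 3). Sesn1, a FoxO target that encodes a stress-induced sestrin, was at 27.0, 17.0 and 3.88 against 81.8, 69.2 and 66.0 CPM (2.17, SE 0.62, 1.72 without that replicate). Socs1, a feedback inhibitor of cytokine and insulin signaling, was at 14.7, 3.78 and 30.7 against 1.93, 2.45 and 4.12 CPM (−2.53, SE 0.75, −1.71 without it), with groups that overlapped by 1 library. The Tshr f/f replicate 3 had the most extreme Igfbp4, Pik3cg, Sesn1 and Socs1 of the 6 libraries.

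Whether the genotype difference itself differed between liver and BMDMs was tested with an interaction term over all 12 libraries. The estimate is the difference in liver minus that in BMDMs, it shares its libraries with both comparisons above, and its size as well as its sign rests on the liver labels. Igfbp1 entered the fit with every BMDM library at 0, so its estimate has no usable error and is not read. None of the other 8 members passed an adjusted p under 0.05 in edgeR or DESeq2 (0.0058% of 17246 genes did lower and 0% higher in edgeR), and none had an unadjusted p under 0.05 in edgeR, against 1, Akt1, in DESeq2. The estimates ran from −0.87 for Irs1 (SE 0.67) and −0.85 for Irs2 (SE 0.80) to 0.15 for Pik3ca (SE 0.27). Pik3r1, higher by sign in Tshr MKO BMDMs and in livers labelled Tshr MKO, had −0.09 (SE 0.30, 95% interval −0.76 to 0.58). With the liver labels exchanged, its differences in liver and in BMDMs would have opposite signs, and the order of these estimates would change. Single libraries moved the estimates. Without the BMDM Tshr f/f replicate 3, Pik3ca turned to −0.11 and Insr came to −0.37, from −0.63 with all libraries. Irs2 was at −1.76 (edgeR unadjusted p = 0.0215, adjusted p = 0.299) without the BMDM Tshr f/f replicate 3 and at −0.45 without the liver labelled f/f replicate 3. Irs1 was at −0.34 without the BMDM Tshr MKO replicate 2 and at −1.30 (edgeR unadjusted p = 0.0284, adjusted p = 0.326) without the BMDM Tshr MKO replicate 3. Of the listed genes 9 were lower and 0 higher at an unadjusted p under 0.05, against 7.12% and 7.42% of all genes. Enpp1 had an estimate of −1.997 (SE 0.37, adjusted p = 0.121 in edgeR).

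Liver and BMDMs differed far more than the genotypes did. In this comparison both tissues were scaled together within a genotype, and tissue, diet, insulin and TSH differ at once and cannot be told apart. The livers of each genotype are those with its label, so every tissue value within a genotype, bounds included, rests on the liver labels too. Of the 9 members, 6 were higher in liver in both genotypes at an adjusted p under 0.05 and 2 were lower in both, where 32% and 27.4% of the 15562 genes tested in both were. The 6 were Insr, Irs1, Pik3r1, Akt2, Foxo1 and Igfbp1, and the 2 were Pik3ca and Akt1.

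Foxo1 and Insr had their higher level in liver. In the f/f groups Foxo1 averaged 79.6 CPM in liver and 9.26 in BMDMs (log2 fold change 3.10, SE 0.20, edgeR adjusted p = 5.96e-05), and in the Tshr MKO groups 79.4 and 12.1 (2.72, SE 0.12, adjusted p = 2.83e-06). Insr averaged 182 against 27.8 CPM in f/f (2.71, SE 0.32) and 181 against 43.5 in Tshr MKO (2.06, SE 0.19). Igfbp1, at 0 in all BMDMs, was at least 4100-fold higher in f/f and at least 1955-fold higher in Tshr MKO livers, taking 3 counts in 1 library as the floor.

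The substrates split between the tissues. Irs1 averaged 27.8 CPM in liver and 0.411 in BMDMs in f/f (6.04, SE 0.45, adjusted p = 0.000117) and 26.6 against 0.761 in Tshr MKO (5.14, SE 0.50). Irs2 went the other way, at 22.8 against 49.0 CPM in f/f (−1.10, SE 0.62, adjusted p = 0.165, groups overlapping) and 14.6 against 57.4 in Tshr MKO (−1.98, SE 0.40, adjusted p = 0.00354). Without the BMDM Tshr f/f replicate 3 the f/f value of Irs2 was −0.22.

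The kinases split too. Akt1 averaged 78.1 CPM in liver and 179 in BMDMs in f/f (−1.19, SE 0.15) and 80.0 against 224 in Tshr MKO (−1.49, SE 0.07). Akt2 averaged 127 against 66.1 CPM in f/f (0.94, SE 0.17) and 134 against 79.0 in Tshr MKO (0.77, SE 0.07). Pik3r1 was higher in liver by 1.17 (SE 0.20) in f/f and 1.06 (SE 0.20) in Tshr MKO, and Pik3ca was at −0.81 (SE 0.23) and −0.68 (SE 0.11). Scaling by library totals alone moved the median of all genes from 0.05 to −0.78 in f/f and from 0.06 to −0.89 in Tshr MKO. With it Akt2 was at 0.10 in f/f and at −0.18 in Tshr MKO, and Pik3r1 at 0.35 and 0.12, so that Akt2 was then called lower in liver in Tshr MKO (edgeR adjusted p = 0.0484), Pik3r1 passed in neither genotype and only relative to the bulk of genes were both higher in liver. Insr, Irs1, Foxo1, Akt1 and Pik3ca kept their direction in both genotypes with sizes that moved. Irs2 in f/f, which had not passed with TMM, was then called lower in liver at an adjusted p under 0.05 in edgeR. Akt1 then came to −2.01 in f/f and −2.44 in Tshr MKO, Pik3ca to −1.58 and −1.62, and Insr to 1.81 and 1.12.

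**Figure D4:**
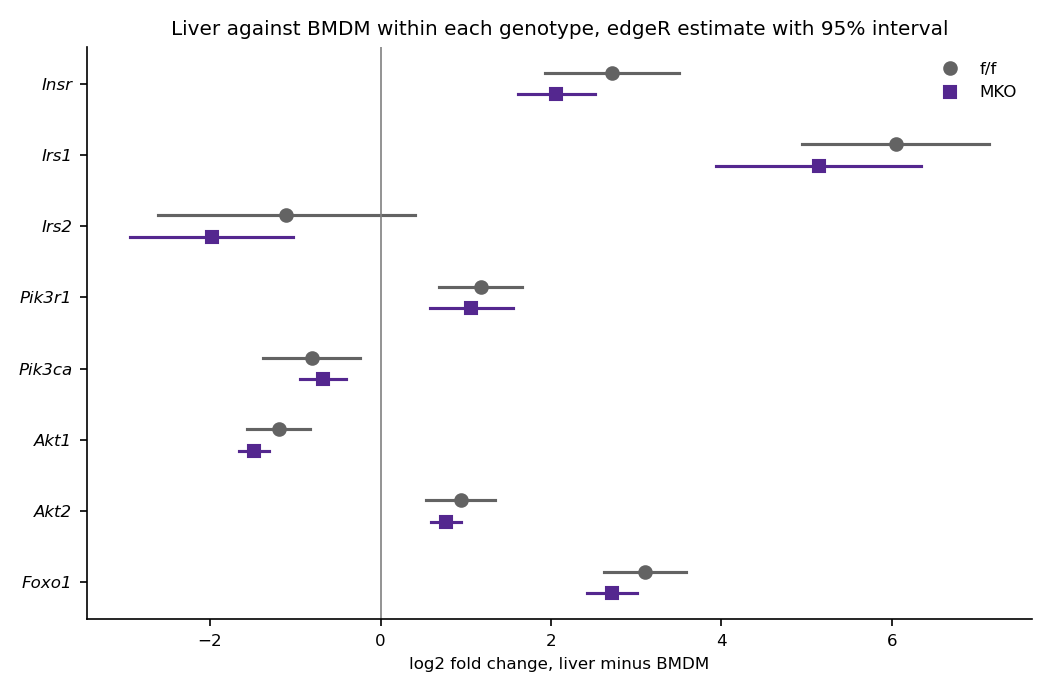
edgeR log2 fold change of liver against BMDM (horizontal axis) with its 95% interval for 8 of the 9 genes, within Tshr f/f (circles) and within Tshr MKO (squares), n = 3 per group. Irs1 has the largest difference, 6.04 and 5.14, Akt1 and Pik3ca lie under 0 in both genotypes, and Igfbp1 is left out because it was at 0 in BMDMs.

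Of the wider list, 26 genes were higher in liver in both genotypes and 21 lower, of 72 tested, near the 32% and 27.4% of all genes. Besides Igfbp1, the 3 with the largest fitted difference were FoxO targets of the liver that were at 0 in BMDMs, and were at least 73387-fold (Pck1, the gluconeogenic enzyme gene), 9515-fold (Apoc3) and 5401-fold (G6pc) higher in f/f livers. The 3 lowest in f/f were Pik3cg (−5.66, SE 0.50), Socs1 (−5.56, SE 0.93) and Pik3r5 (−4.27, SE 0.70), which were at −5.47, −3.60 and −4.19 in Tshr MKO, where Inpp5d (−4.20) lay below Socs1. Of these, Pik3cg and Pik3r5 encode subunits of the PI 3-kinase of leukocytes. Of the 8 PI 3-kinase subunit genes 5 were lower in liver in both genotypes and 1, Pik3r1, was higher.

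Levels of different genes were compared per exon length, in TPM, where a library's counts over exon length are scaled to the same sum in every library. In livers labelled Tshr f/f the order was Igfbp1 (383 ± 29.2 TPM, SD, n = 3), Akt1 (33.4 ± 4.36), Akt2 (30.9 ± 3.36), Insr (23.1 ± 1.58), Pik3r1 (19.1 ± 4.81), Foxo1 (16.1 ± 2.55), Pik3ca (8.47 ± 1.48), Irs2 (6.36 ± 3.14) and Irs1 (5.30 ± 1.96). Igfbp1 stood clear of the rest, Akt2 of Insr and Foxo1 of Pik3ca, whereas Akt1 and Akt2, Insr and Pik3r1, Pik3r1 and Foxo1, Pik3ca and Irs2, and Irs2 and Irs1 overlapped between libraries. In livers labelled Tshr MKO Igfbp1 was still first at 124 ± 56.4 TPM, and Pik3r1 (25.5 ± 5.66) stood above Insr (20.6 ± 0.738) in the means with ranges that overlapped.

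In BMDMs Akt1 came first, at 184 ± 32.6 TPM in Tshr f/f and 237 ± 13.2 in Tshr MKO, above every other member in every library. Akt2 (39.2 ± 8.09 in Tshr f/f), Pik3ca (34.4 ± 1.98) and Irs2 (29.6 ± 17.6) followed with ranges that overlapped, then Pik3r1 (20.5 ± 4.56), whose range overlapped that of Irs2, and then Insr (9.00 ± 4.83) and Foxo1 (4.64 ± 1.81), which overlapped each other. In Tshr MKO the means ran Akt2 (47.9 ± 1.90), Irs2 (38.8 ± 10.2), Pik3r1 (33.5 ± 4.51) and Pik3ca (33.4 ± 2.56), and the ranges of the last 3 overlapped, as did those of Akt2 and Irs2. Irs1 was last of those detected, at 0.199 ± 0.114 TPM in Tshr f/f and 0.368 ± 0.251 in Tshr MKO.

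**Figure D5:**
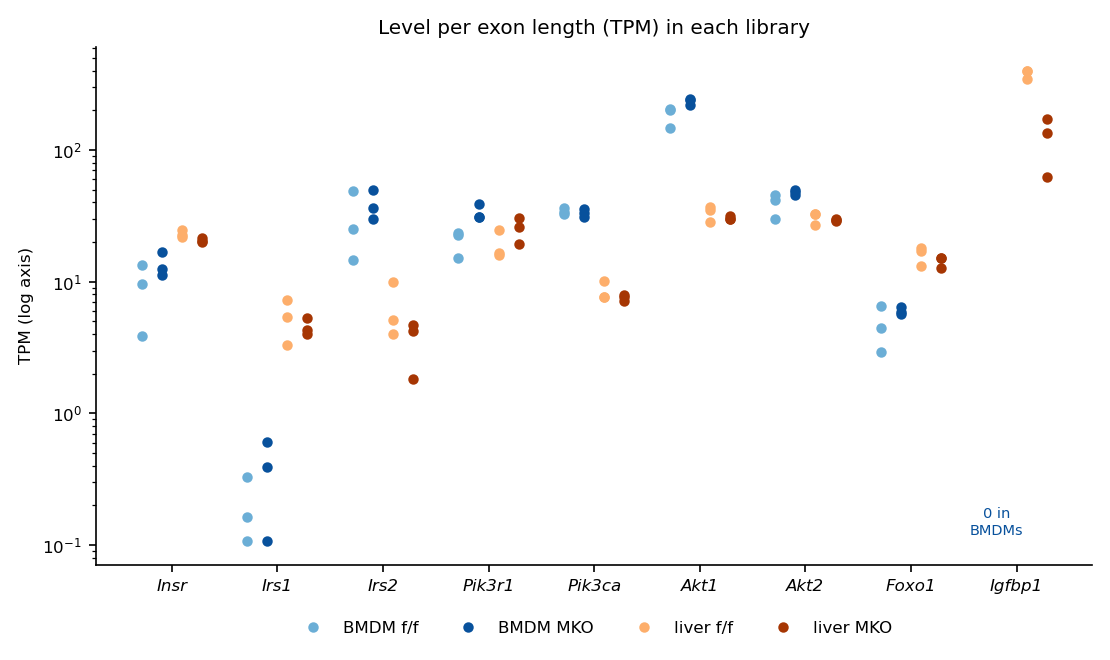
Level of each gene per exon length in TPM (vertical log axis), with a point for each library and a colour for each of the 4 groups. Akt1 leads in BMDMs at 184 and 237 in the means, Igfbp1 leads in livers at 383 and 124, and Irs1 lies under 1 in every BMDM library.

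The ratio of paired members within a library, per exon length, differed between the tissues. Akt2 over Akt1 was 0.213 ± 0.009 in Tshr f/f and 0.203 ± 0.006 in Tshr MKO BMDMs, and 0.939 ± 0.197 and 0.965 ± 0.043 in the livers. Irs2 over Irs1 was 77.0 to 458 in Tshr f/f and 49.3 to 468 in Tshr MKO BMDMs, over few counts of Irs1, and 0.953 to 1.38 and 0.344 to 1.17 in the livers. No BMDM library overlapped a liver in either ratio. Pik3r1 over Pik3ca was 0.603 ± 0.161 in Tshr f/f and 1.00 ± 0.074 in Tshr MKO BMDMs, groups that did not overlap, and 2.33 ± 0.832 and 3.40 ± 0.946 in livers labelled Tshr f/f and Tshr MKO, which did.

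The members lie in the GRCm38 genome, with the gene bounds of GENCODE M21, as follows. Insr (ENSMUSG00000005534) is at chr8:3122061-3279617, Irs1 (ENSMUSG00000055980) at chr1:82233101-82291416, Irs2 (ENSMUSG00000038894) at chr8:10984681-11008458 and Pik3r1 (ENSMUSG00000041417) at chr13:101680563-101768217. Pik3ca (ENSMUSG00000027665) is at chr3:32397671-32468486, Akt1 (ENSMUSG00000001729) at chr12:112653821-112674884, Akt2 (ENSMUSG00000004056) at chr7:27591552-27640826, Foxo1 (ENSMUSG00000044167) at chr3:52268336-52353221 and Igfbp1 (ENSMUSG00000020429) at chr11:7197782-7202546. All are protein-coding genes. Exons of 3 members overlap a gene on the other strand: Gm9747 over 30.9% of the Irs1 exons, Gm20402 over 7.78% of those of Foxo1 and 9530052E02Rik over 2.56% of those of Irs2. These neighbours had at most 0, 0 and 4 counts in a library.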

How the data were processed

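The deposited values were counts of reads per gene for 12 libraries, made by the authors from strand-specific TruSeq libraries read on a NovaSeq instrument. The submitters' processing notes name FastQC 0.11.2, STAR, StringTie and the mm10 build, and the methods name Skewer. The counting program is not given in the sources used here. The study's own test, the MARS model of DEGseq, was not used here, because it takes no account of the spread between libraries.

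Counts were tested as deposited with edgeR 4.0.16 in R 4.3.3 (quasi-likelihood, TMM factors, filterByExpr), within a tissue for genotype, within a genotype for tissue and over all libraries for the interaction, with Benjamini-Hochberg adjustment over all genes tested. The SE is the log2 fold change over the square root of F. CPM used TMM factors, and TPM used the exon lengths of GENCODE M21, which holds 55154 of the 55335 listed genes. Sequences came from RefSeq windows of GRCm38.p6. Folds against groups with no more than 3 counts per library are bounds. DESeq2 1.42.0, other scaling, filters, blocks and left-out libraries were alternatives, and the fits were tested on simulated data. Figures were made with matplotlib.

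The named genes were the 9 members, the 5 listed genes with the smallest unadjusted p under 0.05 in each genotype comparison, the 3 highest and 3 lowest listed genes between tissues and the 3 genes most like Insr, Irs2, Foxo1 and Igfbp1 over the livers. The members and lists were chosen with earlier results of these data known. 1 listed gene is not reported here by name.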

Additional observations from a re-analysis of the deposited data

How the results depend on the processing

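In liver no member passed an adjusted p under 0.05 in edgeR under any alternative, and DESeq2 called 1 (Igfbp1) with 3 listed genes. The members at an unadjusted p under 0.05 numbered 1 and became 2 with DESeq2, 2 with all 12 libraries in 1 fit, 2 with the ID letter as covariate and 3 with the replicate number as a block, and 1 to 3 with a library left out (3 when replicate 2 with the f/f label was dropped, 2 when replicate 1 with the MKO label was). The listed genes at that limit numbered 10, and 6 to 14 with a library left out (6 when replicate 3 with the f/f label or replicate 2 with the MKO label was dropped). In BMDMs the listed genes at an adjusted p under 0.05 numbered 0 in edgeR, 6 in DESeq2 and 2 with all 12 libraries in 1 fit. With a library left out, 1 to 2 members and 6 to 24 listed genes had an unadjusted p under 0.05 (24 without the Tshr f/f replicate 2, 6 without the Tshr MKO replicate 1). For the interaction, DESeq2 gave 1 member at an unadjusted p and 7 listed genes at an adjusted p under 0.05. Leaving out a library gave 0 to 2 members at an unadjusted p and 0 to 2 listed genes at an adjusted p. It gave 7 to 17 listed genes at an unadjusted p (17 without the BMDM Tshr f/f replicate 2). The shares of all genes in these interaction fits are not given here, so the counts are not read as a result about the list. The cause of these moves was not tested.

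Some signs turned. In liver Akt2 was at 0.0215 with library totals alone and from −0.13 to 0.10 over the left-out libraries, and Irs1 between −0.43 and 0.0496. Insr (−0.17 to −0.05), Pik3ca (−0.19 to −0.002), Akt1 (−0.11 to −0.04) and Foxo1 (−0.17 to −0.02) kept their sign over the left-out libraries. In BMDMs Irs2 lay between −0.23 and 1.00 and Pik3ca between −0.39 and 0.005. For the interaction Pik3ca was at −0.0468 with library totals alone and from −0.11 to 0.30 over the left-out libraries, and Pik3r1 between −0.24 and 0.11. Between tissues Akt2 in Tshr MKO was at 0.77 with TMM and at −0.18 with library totals alone, and was called lower in liver there (edgeR adjusted p = 0.0484). Between tissues in f/f, Pik3ca had an edgeR adjusted p of 0.0712 when liver replicate 1 was dropped and 0.0793 when replicate 2 was. In all, 814 values of single genes kept their direction and side of the threshold, 11 newly passed it, 5 no longer did and 14 changed sign, and 251 counts stayed within 1.5 times and 25 did not. Members at an adjusted p under 0.05 between tissues numbered 8 in f/f and 9 in Tshr MKO, and 7 and 8 with library totals alone. With TMM, 4718 of all 15931 genes passed as lower in liver and 5383 as higher in f/f. In Tshr MKO, 5889 of all 16267 genes passed as lower and 6427 as higher. Over all genes, edgeR called 0 in liver and 0 in BMDMs at an adjusted p under 0.05, DESeq2 called 269 and 1223, and edgeR with all 12 libraries in 1 fit called 150 in BMDMs.

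Replicate numbers did not pair the libraries: same-numbered deviations correlated at −0.07, 0.25 and −0.03 in liver and at 0.14, 0.03 and 0.11 in BMDMs. With the replicate block, Igfbp1 was at −1.68 (edgeR adjusted p = 0.558), and the block changed no member's call at an adjusted p. Irs1 in BMDMs rests on few counts.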
